A study of Mus musculus with 24 samples.

Results

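The secreted and receptor layer of Wnt signalling was followed through the differentiation of mouse embryonic stem cells with and without Atf3. It was taken as the protein-coding genes named Wnt, Fzd, Sfrp or Dkk with a number, and these came to 37 of the 53465 genes in the deposited table: 19 Wnt ligands, 10 Frizzled receptors, 4 Sfrp inhibitors and 4 Dkk inhibitors. RNA-seq was run on 12 libraries of Atf3 knockout (KO) cells and 12 of wild-type (WT) cells, with 3 libraries of each genotype as stem cells (day 0) and 3 at each of days 3, 6 and 9. Atf3 is an ATF/CREB transcription factor that cells induce under stress, and the study asked what its absence does to mesoderm and endothelial formation. Per the labels' protocols, stem cells of both genotypes were grown in serum with leukaemia inhibitory factor (LIF, 1000 U/mL), CHIR99021 (3 µM) and PD0325901 (1 µM). CHIR99021 inhibits GSK3 and so switches on β-catenin signalling without a Wnt ligand, and PD0325901 inhibits MEK, so at day 0 both genotypes carried a Wnt pathway agonist. The sources used here give neither the differentiation medium nor the edited part of Atf3, the strain or the number of KO clones. They do not say whether replicate libraries are separate cultures, and p-values then measure a spread that may be technical.

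Wnt proteins are lipid-modified secreted ligands that bind the extracellular domain of Frizzled receptors, with Lrp5 and Lrp6 as co-receptors for the β-catenin branch and Ror2, Ryk and others for branches that act on cell polarity and movement. Sfrp proteins carry a Frizzled-like domain and bind Wnts outside the cell, whereas Dkk1, Dkk2 and Dkk4 bind Lrp5 and Lrp6. In the mouse embryo Wnt3 is needed for the primitive streak, and in stem cell cultures Wnt signals support self-renewal at first and mesoderm formation later.

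Levels are in FPKM (fragments per kilobase of exon, scaled to the library), a unit per length that allows levels of different genes to be compared. A gene was tested where it reached 1 FPKM in at least 3 libraries. Of the members, 27 passed (11 Wnt, 10 Fzd, 3 Sfrp and 3 Dkk genes). A member that passes through 1 group of high libraries differs between groups for that reason, so the counts below describe the 27 and not all 37. The p-values of such a member are not independent of the filter either. Fold changes are differences of group means of log2(FPKM + 1), with the standard error (SE), from limma over all 15159 genes tested. A change was called at a Benjamini-Hochberg adjusted p under 0.05. Depth, as reads recovered from the FPKM steps, was 7855616 to 25274422 per library, and 3 rRNA-type genes took 4.42% to 45.6% of the reads, the most in WT day 6 replicate 3. Atf3 was at 0.134 to 4.17 FPKM in the 12 KO libraries, against 1.15 to 24 FPKM in the 12 WT libraries. Its log2 fold change at day 0 was -1.23 and was not called (SE 0.41, adjusted p = 1). The changes of -2.88, -2.84 and -3.38 at days 3, 6 and 9 were called, with an adjusted p of 0.0107, 8.13e-04 and 5.86e-05. The day 3 call was kept in 1 of 6 leave-outs, in which 1 library was dropped from the fit. The groups did not overlap on any day (exact permutation p = 0.1, the smallest possible with 3 against 3). The deleted part of Atf3 is unknown, so this checks the labels only in part. The 10 stem cell markers, from Pou5f1 to Dppa3, summed to 1784 to 1975 FPKM in KO day 0 libraries and 1854 to 1969 FPKM in WT day 0 libraries. At day 9 they summed to 45.9 to 127 FPKM in KO and 60.7 to 92.4 FPKM in WT libraries.

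Most of the change in this layer went with the day, and the calls were largely shared by both genotypes over days 0 to 3 and less so later. Over days 0 to 3, 14 members were called in KO cells, 9 higher and 5 lower. Of all genes tested, 28.1% were called there, 11.9% higher and 16.2% lower. In WT cells 15 were called, 9 higher and 6 lower, against 25.9% of all genes, 11.4% higher and 14.5% lower. Over days 3 to 6, 15 were called in KO cells, 11 higher and 4 lower, against 32.7% of all genes, 17.7% higher and 14.9% lower. In WT cells it was 16, 12 higher and 4 lower, against 38.6% of all genes, 19.5% higher and 19.1% lower. Over days 6 to 9, 12 were called in KO cells, 9 higher and 3 lower, against 8.51% of all genes, 6.06% higher and 2.45% lower. In WT cells it was 7, 6 higher and 1 lower, against 13.3% of all genes, 8.15% higher and 5.13% lower. Members called with the same sign in both genotypes numbered 14, 11 and 4 over the 3 steps. The 4 of days 6 to 9 stand against 12 called in KO and 7 in WT cells. A call in 1 genotype only is not a tested difference between them, and no shared count over all genes is given. Among the 27 tested members every one was called in at least 1 of the 6 steps, with the filter above in mind. No such count over all genes is given, so this does not set the members apart. The split of higher to lower calls depended on the scaling. With TPM, which gives every library the same sum, it was 4 to 5 in both genotypes over days 0 to 3 and 11 to 2 in KO cells over days 3 to 6. Over days 6 to 9 it was 7 to 0 in KO and 13 to 0 in WT cells. TPM also moved the median of all genes, as given in the last section. No share of all genes called is given for the other scalings, so these splits do not set the members apart. With equal library sums without rRNA-type genes it was 9 to 5 in WT cells over days 3 to 6, and 10 to 1 in KO and 8 to 0 in WT cells over days 6 to 9. No called step of a member changed sign with TPM or with equal sums.

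Between the genotypes few members were called. No member was called at day 0, where 0.0132% of all genes were, 0.0066% higher and 0.0066% lower. None was called at day 3 either, where 0.0132% of all genes were, all of them lower. None of the 27 had an unadjusted p under 0.05 on these days, against 168 of all genes at day 0 and 121 at day 3. At day 6 it was 8 of the 27 and 1516 of all genes, and at day 9 it was 7 of the 27 and 789 of all genes. The counts over all genes at days 0 and 3 are a share under 0.05 of the 15159 tested. The fit shares a single spread over all 8 groups, so tests on these 2 days may be too strict. The lack of calls there does not show that the genotypes are alike. At day 6, 1 member was higher in KO cells and 2 were lower, against 0.726% of all genes, 0.231% higher and 0.495% lower. That split was 0 to 2 with equal sums or with voom on the recovered reads, and 0 to 0 with TPM. No share of all genes called is given for these settings. At day 9, 1 member was lower in KO cells, against 0.963% of all genes, 0.468% higher and 0.495% lower. The median log2 fold change of the 27, KO over WT, was -0.04, -0.11, 0.03 and 0.17 at days 0, 3, 6 and 9, and over all genes it was -0.01, -0.02, 0.02 and 0.01. The KO step minus the WT step was also tested. Over days 0 to 3 it was called in no member, against 0.0132% of all genes, 0.0066% higher and 0.0066% lower. There, none of the 27 and 113 of all genes had an unadjusted p under 0.05, again a share of all genes under 0.05. Over days 3 to 6 it was called in 1 member, lower, against 0.0726% of all genes, 0.0132% higher and 0.0594% lower. Over days 6 to 9 it was called in 1 member, higher, against 0.963% of all genes, 0.6% higher and 0.363% lower. Both calls were Sfrp1.

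**Figure D1:**
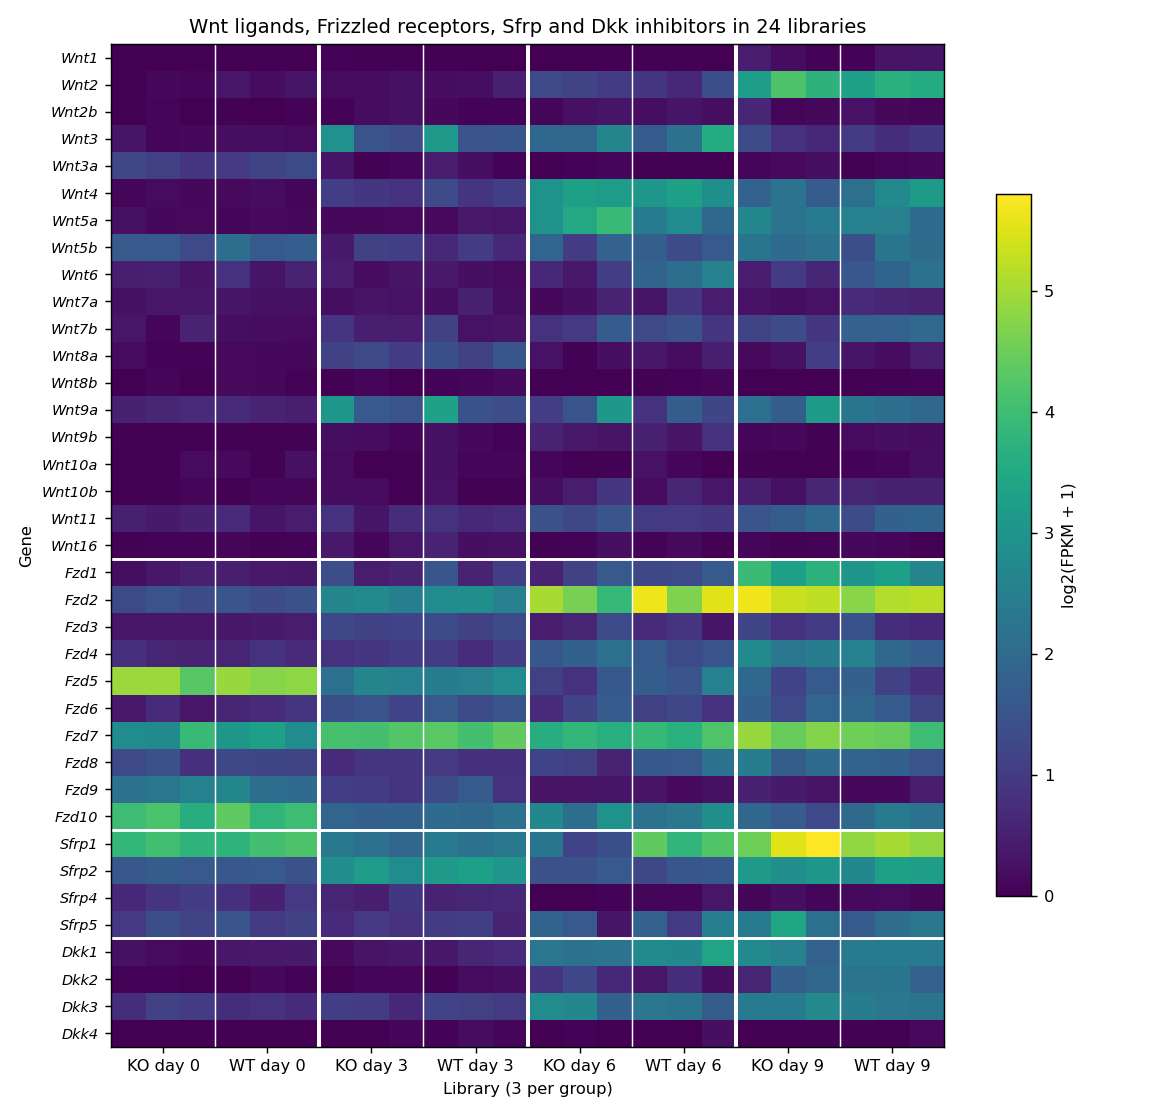
Level of each of the 37 genes as log2(FPKM + 1), in rows by family, in each of the 24 libraries, in columns by day with KO left of WT. Fzd5 is highest at day 0 and Wnt2 at day 9 in both genotypes, and Sfrp1 at day 6 is low in KO and high in WT libraries.

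The Wnt ligands were scarce in stem cells and had higher sums on later days, and the ligand with the highest mean share differed between days. The sum over the 19 genes averaged 5.40 ± 0.462 FPKM in KO and 6.59 ± 1.08 FPKM in WT cells at day 0 (SD, n = 3 each, as for all means here). At day 3 the sum was 12.7 ± 6.50 FPKM in KO and 14.5 ± 8.89 FPKM in WT cells. It was 34.0 ± 10.8 in KO and 29.7 ± 4.81 FPKM in WT cells at day 6, and 34.8 ± 3.93 in KO and 37.2 ± 4.78 FPKM in WT cells at day 9. The libraries of the genotypes overlapped on all 4 days. Wnt5b led at day 0, with 34.0% of the sum in KO and 39.0% in WT cells. Wnt9a had the highest mean share at day 3, with 26.7% in KO and 24.1% in WT cells, beside 23.6% in KO and 23.5% in WT cells for Wnt3. In WT cells that order came from replicate 1, since Wnt3 lay above Wnt9a in replicates 2 and 3. At day 6 the top ligand was Wnt5a in KO cells, with 30.6 ± 4.3% of the sum against 15.1 ± 5.8% in WT cells. Wnt4 had 24.4 ± 6.1% in KO cells and was the top ligand in WT cells at that day, with 26 ± 6.0%. Wnt2 led at day 9, with 35.9% in KO and 28.6% in WT cells. The other 8 ligands missed the filter, namely Wnt1, Wnt2b, Wnt7a, Wnt8b, Wnt9b, Wnt10a, Wnt10b and Wnt16, and each stayed under 1 FPKM in all 24 libraries.

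Wnt3a was highest at day 0, and Wnt5b had the top share of the ligand sum there. Wnt3a, a β-catenin-branch ligand used to support stem cell self-renewal, was at 1.35, 1.13 and 0.865 FPKM in KO libraries and at 0.948, 1.28 and 1.47 FPKM in WT libraries at day 0. At day 3 it was at 0.252, 0.0233 and 0.053 FPKM in KO libraries and at 0.368, 0.172 and 0.035 FPKM in WT libraries, and at day 6 it was listed at 0 in 1 KO library and in all 3 WT libraries. It fell between days 0 and 3 by 0.93 on the log2 scale in KO cells (SE 0.13, adjusted p = 1.17e-05) and by 0.91 in WT cells (adjusted p = 1.66e-05). Wnt3a reached 1 FPKM in 4 libraries, all of day 0, so it was tested only through the day on which it is high. Wnt5b, a ligand tied mainly to β-catenin-independent signalling, averaged 1.84 ± 0.37 FPKM in KO and 2.59 ± 0.62 FPKM in WT cells at day 0 and 0.869 ± 0.46 in KO and 0.738 ± 0.26 FPKM in WT cells at day 3. Its level was 2.1 ± 0.92 in KO and 1.97 ± 0.44 FPKM in WT cells at day 6 and 3.46 ± 0.32 in KO and 2.83 ± 1.1 FPKM in WT cells at day 9, so its level was not highest at day 0. The fall over days 0 to 3 was called in WT cells (log2 -1.04, adjusted p = 0.00334) and not in KO cells (-0.63, adjusted p = 0.0631), and the steps were not called different (adjusted p = 1).

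Wnt8a, Wnt3 and Wnt9a rose by day 3, and of these only Wnt8a had its highest mean on that day in both genotypes. Wnt8a, a ligand of the early primitive streak, was at 1.16, 1.43 and 1.05 FPKM in KO libraries and at 1.65, 1.19 and 1.94 FPKM in WT libraries at day 3, and at most 0.211 FPKM in KO and 0.394 FPKM in WT libraries at days 0 and 6. Of the day 9 libraries, KO replicate 3 was at 1.12 FPKM and the others were at most 0.385 FPKM. It rose between days 0 and 3 (log2 1.04 in KO and 1.23 in WT cells, SE 0.18) and fell between days 3 and 6 (-0.96 in KO and -1.02 in WT cells), all 4 steps called. Wnt8a reached 1 FPKM in 7 libraries, those of day 3 and KO day 9 replicate 3, so it passed the filter through day 3. Wnt3 was at 6.65, 1.84 and 1.57 FPKM in KO libraries and at 7.69, 1.79 and 1.92 FPKM in WT libraries at day 3, against at most 0.253 FPKM at day 0, a rise of 1.75 in KO and 1.84 in WT cells on the log2 scale (SE 0.45, adjusted p = 0.00586 and 0.0042). In KO cells that call was lost without KO day 3 replicate 1 (log2 1.25). The day 3 mean of Wnt3 was 3.35 ± 2.9 FPKM in KO and 3.8 ± 3.4 FPKM in WT cells. At day 6 it was 3.65 ± 1.4 FPKM in KO and 5.54 ± 4.7 FPKM in WT cells, with 10.9 FPKM in WT replicate 3. The fall of Wnt3 over days 6 to 9 was called in WT cells (-1.58, adjusted p = 0.0251, kept in 3 of 7 leave-outs) and not in KO cells. Wnt9a, known for its part in mouse joint formation, was at 7.43, 2.08 and 1.82 FPKM in KO libraries and at 9.03, 1.77 and 1.6 FPKM in WT libraries at day 3. Its rise from day 0 was called in KO cells (log2 1.45, SE 0.52, adjusted p = 0.0419) and in WT cells (1.47, adjusted p = 0.0418). Without replicate 1 of day 3 it was no longer called in KO (0.95, adjusted p = 0.232) or WT cells (0.84, adjusted p = 0.274), and dropping any single day 0 library of the genotype also took it past the threshold. The mean of Wnt9a in KO cells was 4.54 ± 3.0 FPKM at day 9, above the 3.78 ± 3.2 FPKM of day 3. In WT cells it was 3.29 ± 0.48 FPKM at day 9, below the 4.13 ± 4.2 FPKM of day 3.

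For Wnt3 and Wnt9a, but not for Wnt8a, replicate 1 of day 3 thus stood above the others in both genotypes. Fzd1 had its highest day 3 values there too, with 1.58, 0.352 and 0.471 FPKM in KO and 1.91, 0.497 and 1.08 FPKM in WT libraries. Reads in rRNA-type genes were 15.4% of the KO and 15.3% of the WT library with that number. They were 25% to 27.9% in the other KO and 33% to 35.2% in the other WT libraries of day 3, and the part of this in the levels was not tested. At day 6 another library stood apart, KO replicate 3, with 7.48 FPKM of Wnt9a against 1.08 and 1.84 FPKM in the other KO libraries and 0.792, 2.29 and 1.31 FPKM in WT libraries.

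Wnt4, Wnt5a and Wnt2 were the 3 most abundant ligands over all libraries. Wnt4, known for its part in kidney tubule and female reproductive tract formation, was at 0.0743, 0.119 and 0.0862 FPKM in KO libraries and 0.108, 0.149 and 0.076 FPKM in WT libraries at day 0. At day 3 Wnt4 had 1.08, 0.888 and 0.768 FPKM in KO libraries and 1.43, 0.837 and 1.11 FPKM in WT libraries. All day 3 libraries of both genotypes lay above all day 0 libraries. At day 6 Wnt4 had 6.8, 8.76 and 8.13 FPKM in KO libraries and 7.44, 8.77 and 6.45 FPKM in WT libraries. At day 9 Wnt4 had 2.56, 3.64 and 2.21 FPKM in KO libraries and 3.39, 5.86 and 8.01 FPKM in WT libraries. The genotypes overlapped on both days, at day 9 by 1 KO value that lay above the lowest WT value. Wnt4 rose between days 3 and 6 by 2.21 in KO (SE 0.20, adjusted p = 7.65e-08) and 2.01 in WT cells (adjusted p = 3.15e-07). Its fall between days 6 and 9 was called in KO cells (-1.24, adjusted p = 3.43e-04) and not in WT cells (-0.39, adjusted p = 0.196). Neither the KO minus WT difference at day 9 (-0.78, adjusted p = 0.0847) nor the difference between the steps (-0.84, SE 0.29, adjusted p = 0.273) was called. Without WT day 9 replicate 1 both were, at -1.06 (adjusted p = 0.00403) and -1.12 (adjusted p = 0.0317).

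Wnt2, a ligand of the developing foregut, lung and placenta, appeared last. It was at 0, 0.0946 and 0.0642 FPKM in KO libraries and 0.28, 0.139 and 0.247 FPKM in WT libraries at day 0. At day 3 Wnt2 had 0.118, 0.142 and 0.195 FPKM in KO libraries and 0.15, 0.168 and 0.429 FPKM in WT libraries. The highest of these values was in a WT library of day 3. At day 6 Wnt2 had 1.43, 1.27 and 1.03 FPKM in KO libraries and 0.896, 0.578 and 1.63 FPKM in WT libraries. At day 9 Wnt2 had 8.31, 17.2 and 12.5 FPKM in KO libraries and 9.05, 11.9 and 11 FPKM in WT libraries. Every day 9 library lay above every earlier one and the genotypes overlapped at days 6 and 9. The rise between days 6 and 9 was 2.56 in KO (SE 0.20, adjusted p = 3.52e-08) and 2.54 in WT cells (adjusted p = 5.07e-08), and it held in each of the 7 leave-outs run per genotype. Wnt11, a β-catenin-independent ligand of the heart field, averaged 1.66 ± 0.25 FPKM in KO and 0.936 ± 0.046 FPKM in WT cells at day 6 without overlap, a difference that was not called (0.46, SE 0.17, adjusted p = 0.326), and 2.36 ± 0.52 FPKM in KO and 2.22 ± 0.63 FPKM in WT cells at day 9. Wnt7b averaged 1.22 ± 0.32 FPKM in KO and 2.68 ± 0.25 FPKM in WT cells at day 9, again without overlap and not called (-0.74, SE 0.23, adjusted p = 0.264).

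**Figure D2:**
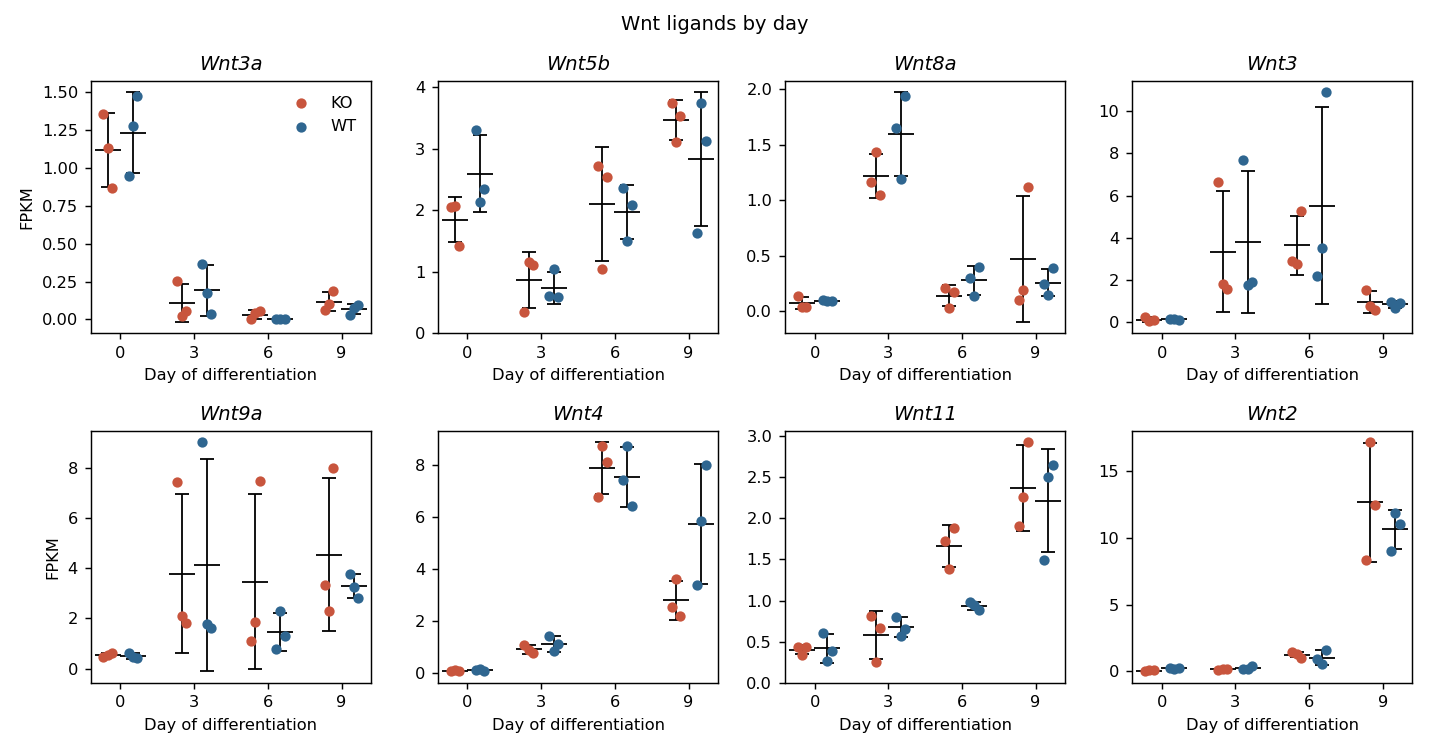
FPKM of 8 Wnt ligands by day of differentiation, with a point per library (KO left of WT) and the mean ± SD of 3 libraries as black marks. Wnt3a is highest at day 0, Wnt8a at day 3, Wnt4 at day 6 and Wnt2 at day 9 in both genotypes, and single libraries stand apart in Wnt3 and Wnt9a at day 3.

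Wnt5a and Wnt6 were the ligands called between genotypes. Wnt5a (chr14:28504750-28527448, + strand, mm10), the main ligand of the Ror2 branch and needed for outgrowth of the mouse body axis, was at 0.199, 0.0818 and 0.111 FPKM in KO libraries and 0.0692, 0.11 and 0.0917 FPKM in WT libraries at day 0. At day 3 Wnt5a had 0.0819, 0.0903 and 0.103 FPKM in KO libraries and 0.116, 0.315 and 0.284 FPKM in WT libraries. All of these values were low, and at day 3 the KO libraries lay below the WT libraries. At day 6 Wnt5a had 6.8, 10.4 and 14.3 FPKM in KO libraries and 4.17, 6.11 and 2.9 FPKM in WT libraries. At day 9 Wnt5a had 5.48, 3.62 and 4.3 FPKM in KO libraries and 4.89, 4.78 and 3.11 FPKM in WT libraries. All KO libraries were above all WT libraries at day 6, and the genotypes overlapped at day 9. The day 6 difference was 1.08 (SE 0.22, adjusted p = 0.0221). These day 6 values rested on 576, 1499 and 2259 reads in KO and 371, 808 and 99 reads in WT libraries. The call was not stable: it was kept in 2 of 7 leave-outs (adjusted p 0.00428 to 0.34) and lost without KO replicate 2 or 3, without WT replicate 1 or 3, and without replicate 3 of both (log2 0.64). The rise between days 3 and 6 was 3.34 in KO cells (adjusted p = 9.26e-10) and 2.08 in WT cells (adjusted p = 6.18e-07), and the difference between them was not called (1.26, SE 0.31, adjusted p = 0.263) except without WT day 6 replicate 2 (1.48, adjusted p = 0.0448). Smooth muscle and fibroblast markers summed to 276 to 422 FPKM in KO and 92.5 to 189 FPKM in WT libraries at day 6, with 0 of 6 tested markers called and none of the 7 at 0 throughout a group, and their part in the Wnt5a difference was not tested. In bulk RNA, fewer cells of a type and less RNA per cell cannot be told apart.

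Wnt6 (chr1:74771892-74785322, + strand, mm10), expressed in surface ectoderm and extraembryonic endoderm of the mouse embryo, was the 1 member called at both day 6 and day 9. It was at 0.391, 0.422 and 0.231 FPKM in KO libraries and 0.782, 0.25 and 0.473 FPKM in WT libraries at day 0. At day 3 Wnt6 had 0.39, 0.147 and 0.234 FPKM in KO libraries and 0.309, 0.173 and 0.132 FPKM in WT libraries. The genotypes overlapped on both days. At day 6 Wnt6 had 0.59, 0.321 and 1.11 FPKM in KO libraries and 2.61, 3.24 and 4.81 FPKM in WT libraries. At day 9 Wnt6 had 0.349, 0.978 and 0.54 FPKM in KO libraries and 2, 2.67 and 3.53 FPKM in WT libraries. All KO libraries lay below all WT libraries on both days. Wnt6 reached 1 FPKM in 7 libraries, those of WT days 6 and 9 and KO day 6 replicate 3. It was thus tested mainly through the groups where it is high. The log2 fold change was -1.44 at day 6 (SE 0.21, adjusted p = 8.13e-04) and -1.20 at day 9 (adjusted p = 0.00313), and both calls held in every leave-out. The day 6 values came from 14, 13 and 49 reads in KO and 65, 120 and 46 reads in WT libraries, and the day 9 values from 17, 39 and 32 reads in KO and 153, 117 and 115 reads in WT libraries. Wnt6 rose between days 3 and 6 in WT cells (1.89, adjusted p = 8.79e-07) and was not called in KO cells (0.39, adjusted p = 0.159), and the test of that difference missed the threshold (-1.5, SE 0.29, adjusted p = 0.0599). It passed without KO day 6 replicate 3 (-1.68), WT day 6 replicate 2 (-1.54) or replicate 3 of both genotypes (-1.49). At day 6 the difference was not called with TPM (-1.09, adjusted p = 0.294), a scaling in which the median gene was 0.553 higher in KO cells. At day 9 the trophoblast markers summed to 14.9 to 27.8 FPKM in KO and 56.2 to 104 FPKM in WT libraries (1 of 6 tested markers called, lower, and Prl3d1 at 0 in all libraries of both groups), and the visceral endoderm markers to 51.4 to 273 FPKM in KO and 216 to 312 FPKM in WT libraries (0 of 9 called). At day 6 the trophoblast markers summed to 27.8 to 67.2 FPKM in KO and 47.7 to 60.2 FPKM in WT libraries (0 of 6 called) and the visceral endoderm markers to 60.5 to 576 FPKM in KO and 94.4 to 221 FPKM in WT libraries (0 of 9 called). Both sums thus overlapped between genotypes at day 6, and at day 9 that of the visceral endoderm markers did. Other lists were also apart at day 9. The endothelial markers summed to 19.0 to 26.6 FPKM in KO and 8.39 to 10.2 FPKM in WT libraries (4 of 6 called, higher). The cardiac muscle markers summed to 283 to 937 FPKM in KO and 80.1 to 130 FPKM in WT libraries (5 of 6 called, higher). The part of all these lists in the Wnt6 differences was not tested. Wnt10a, the next protein-coding gene downstream on the same strand at a distance of 6193 bp, was at most 0.214 FPKM in any library.

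**Figure D3:**
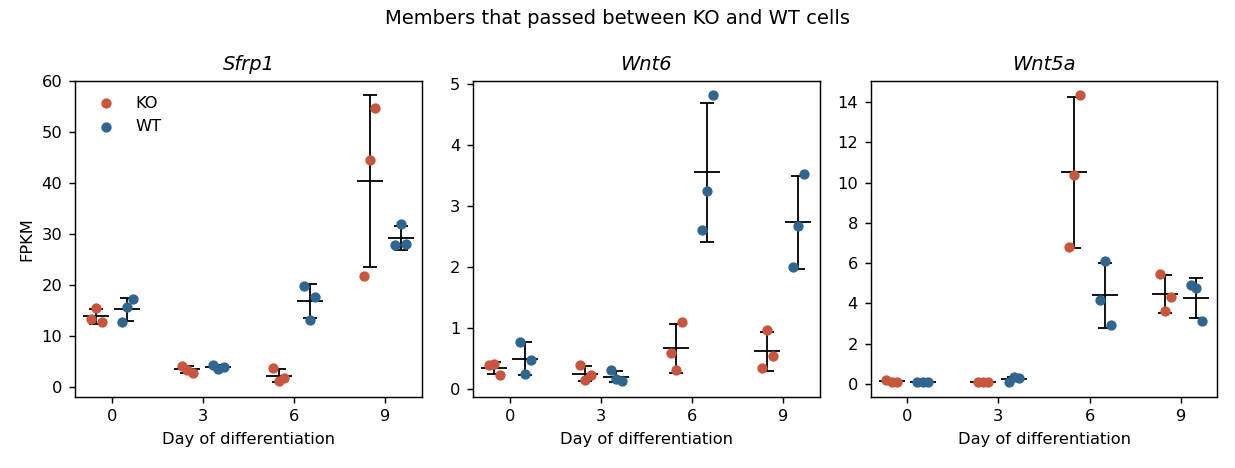
FPKM of Sfrp1, Wnt6 and Wnt5a by day, with a point per library (KO left of WT) and the mean ± SD of 3 libraries in black. At day 6 all KO libraries lie below all WT libraries for Sfrp1 and Wnt6 and above them for Wnt5a, and at day 9 the separation remains for Wnt6.

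Promoter windows of 300 bases (250 before to 50 after a RefSeq start, GRCm38.p6) were at hand for 25 members, as 28 windows, with none for Sfrp1 or Wnt5a. 3 motifs were searched on both strands: CTTTGAT, the core bound by TCF/LEF factors at the end of the β-catenin branch; TGANTCA, bound by AP-1; and TGACGTCA, the CRE site bound by ATF/CREB factors such as Atf3. The TCF/LEF core was in 2 of the 28 windows and in 3.73% of all 32851 windows. The AP-1 motif was in 1 of 28 and in 7.81% of all. The CRE site was in 0 of 28 and in 1.79% of all, and none of the 3 contains another. A match describes letters in a window and not a bound site. The window of Wnt6 (chr1:74771642-74771941, + strand), the called ligand for which one was at hand, is shown with the windows that hold a match: Wnt11 (chr7:98834862-98835161, + strand), with the TCF/LEF core as its reverse complement, and the Wnt5b windows at chr6:119544298-119544597 (a, with AP-1) and chr6:119449337-119449636 (b, with TCF/LEF), both on the minus strand. Capitals mark the match, and Wnt6 has none.
Wnt6: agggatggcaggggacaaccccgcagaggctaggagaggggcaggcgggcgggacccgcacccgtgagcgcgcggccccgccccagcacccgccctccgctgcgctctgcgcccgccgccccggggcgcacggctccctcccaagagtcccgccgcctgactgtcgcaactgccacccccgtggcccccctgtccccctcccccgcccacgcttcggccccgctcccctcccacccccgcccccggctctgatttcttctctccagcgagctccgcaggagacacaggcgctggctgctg
Wnt11: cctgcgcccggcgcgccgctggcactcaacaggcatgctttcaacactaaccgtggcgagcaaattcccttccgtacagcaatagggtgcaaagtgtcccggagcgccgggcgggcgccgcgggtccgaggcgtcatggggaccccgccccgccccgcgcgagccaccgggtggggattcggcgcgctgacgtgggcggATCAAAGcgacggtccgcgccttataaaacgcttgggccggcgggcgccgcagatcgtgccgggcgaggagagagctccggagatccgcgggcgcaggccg
Wnt5b a: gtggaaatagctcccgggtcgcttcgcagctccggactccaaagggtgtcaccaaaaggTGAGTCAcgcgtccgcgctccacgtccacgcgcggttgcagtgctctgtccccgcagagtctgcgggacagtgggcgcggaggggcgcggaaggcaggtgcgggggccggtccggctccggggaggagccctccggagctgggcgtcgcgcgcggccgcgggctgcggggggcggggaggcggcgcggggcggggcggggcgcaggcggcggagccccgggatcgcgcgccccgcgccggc
Wnt5b b: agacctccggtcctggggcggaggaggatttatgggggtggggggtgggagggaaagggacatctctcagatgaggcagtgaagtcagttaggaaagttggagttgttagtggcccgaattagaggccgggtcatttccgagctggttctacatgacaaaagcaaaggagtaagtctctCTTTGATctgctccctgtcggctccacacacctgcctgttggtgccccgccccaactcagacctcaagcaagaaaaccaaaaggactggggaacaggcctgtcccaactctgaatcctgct
Median GC content was 68.7% over the 28 windows of members and 52.7% over all windows, and that of Wnt6 was 76.7%. Of the members whose windows hold a TCF/LEF core, Wnt11 rose between days 3 and 6 in KO cells (0.77, SE 0.17, adjusted p = 0.00136) and between days 6 and 9 in WT cells (0.71, adjusted p = 0.0077), and Wnt5b rose between days 3 and 6 in both (0.71 in KO, adjusted p = 0.032; 0.77 in WT, adjusted p = 0.0184), with neither Wnt5b call kept in all leave-outs. The fall of Wnt5b over days 0 to 3 in WT cells, given above, was called in all 6 leave-outs.

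Several ligands are neighbours with no protein-coding gene between them. Wnt3a and Wnt9a lie 16175 bp apart on chromosome 11 and point away from each other, and between days 0 and 3 Wnt3a fell while Wnt9a rose in both genotypes, the Wnt9a call resting on few libraries as given above. Wnt9b and Wnt3, 24328 bp apart on the same chromosome and also pointing apart, differed in level: at day 3 Wnt9b was at most 0.166 FPKM in KO and 0.2 FPKM in WT libraries, while Wnt3 was at 1.57 FPKM or more. Wnt10b and Wnt1, 11706 bp apart on chromosome 15, stayed under 1 FPKM.

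The Frizzled receptors were all 10 expressed, and the leading receptor turned over with the day in the same order in both genotypes. Their sum averaged 57.5 ± 4.09 FPKM in KO and 59.2 ± 6.06 FPKM in WT cells at day 0, and 35.3 ± 0.557 in KO and 39.7 ± 2.61 FPKM in WT cells at day 3. It averaged 48.7 ± 5.72 in KO and 69.7 ± 17.6 in WT cells at day 6, and 94.7 ± 17.2 in KO and 72.2 ± 5.44 FPKM in WT cells at day 9. Fzd5 took 44.7% of the sum in KO and 46.0% in WT cells at day 0, Fzd7 took 47.4% in KO and 45.9% in WT cells at day 3, and Fzd2 took 46.2% in KO and 56.2% in WT cells at day 6. At day 9 Fzd2 took 44.6% in each genotype. No receptor was called between KO and WT cells on any day, although 3 of the 10 had an unadjusted p under 0.05 at day 6 and 3 at day 9, where 1516 and 789 of all 15159 genes did.

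Fzd5, needed for yolk sac vessel formation in the mouse, was at 29.3, 29.6 and 18.7 FPKM in KO libraries and 28.8, 25.7 and 26.9 FPKM in WT libraries at day 0. At day 3 Fzd5 had 3.36, 5.22 and 4.95 FPKM in KO libraries and 4.51, 4.73 and 5.98 FPKM in WT libraries. All day 3 libraries lay below all day 0 libraries. At day 6 Fzd5 had 1.15, 0.775 and 2.02 FPKM in KO libraries and 2.29, 1.9 and 4.81 FPKM in WT libraries. At day 9 Fzd5 had 2.85, 1.23 and 2.13 FPKM in KO libraries and 2.42, 1.21 and 0.73 FPKM in WT libraries. All day 0 libraries lay far above all later ones. The fall between days 0 and 3 was -2.27 in KO (SE 0.29, adjusted p = 4.09e-06) and -2.22 in WT cells (adjusted p = 5.77e-06). Fzd10 and Fzd9 went the same way: Fzd10 averaged 14.3 ± 2.8 FPKM in KO and 15.8 ± 3.6 FPKM in WT cells at day 0, and 2.55 ± 0.15 in KO and 3.12 ± 0.34 FPKM in WT cells at day 3. Its change was -2.09 in KO and -2.01 in WT cells, both called. Fzd9 fell between days 0 and 3 by 1.36 in KO and by 0.99 in WT cells on the log2 scale and again between days 3 and 6, by 0.66 in KO and by 1.04 in WT cells, all called.

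Fzd7, the receptor best known in mouse stem cell self-renewal, was at 6.12, 5.79 and 14.4 FPKM in KO libraries and 7.39, 8.66 and 6.1 FPKM in WT libraries at day 0. At day 3 Fzd7 had 16.2, 16.1 and 17.9 FPKM in KO libraries and 18.9, 16.1 and 19.7 FPKM in WT libraries. Every day 3 library lay above every day 0 library. At day 6 Fzd7 had 11.3, 13.3 and 11.4 FPKM in KO libraries and 13.9, 12.1 and 17.4 FPKM in WT libraries. At day 9 Fzd7 had 29.1, 20.7 and 25.2 FPKM in KO libraries and 22.1, 20.8 and 14.9 FPKM in WT libraries. The KO day 0 library with 14.4 FPKM is the unnumbered one, which also had the lowest Fzd5 value of that day (18.7 FPKM). Fzd7 rose between days 0 and 3 by 0.97 in KO (SE 0.24, adjusted p = 0.00476) and by 1.21 in WT cells (adjusted p = 7.67e-04). It rose again between days 6 and 9 in KO cells (0.99, adjusted p = 0.0114; not called without KO day 9 replicate 1, 0.88) and was not called in WT cells (0.38, adjusted p = 0.29), a difference that was not called (0.61, SE 0.34, adjusted p = 0.672).

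Fzd2 had the highest mean of all receptors. It was at 1.47, 1.79 and 1.5 FPKM in KO libraries and 1.82, 1.52 and 1.7 FPKM in WT libraries at day 0. At day 3 Fzd2 had 5.26, 5.79 and 4.63 FPKM in KO libraries and 6.08, 6.39 and 4.78 FPKM in WT libraries. Its day 3 libraries all lay above its day 0 libraries. At day 6 Fzd2 had 32.1, 23.2 and 13.7 FPKM in KO libraries and 49.1, 24.6 and 45.6 FPKM in WT libraries. At day 9 Fzd2 had 50.1, 39.1 and 36.9 FPKM in KO libraries and 26.4, 34 and 35.6 FPKM in WT libraries. It rose between days 0 and 3 (1.27 in KO, 1.33 in WT cells, SE 0.25) and between days 3 and 6 (1.87 in KO, 2.54 in WT cells), all called in every leave-out. The genotypes overlapped at day 6, where the difference was -0.78 (adjusted p = 0.225) and was called without WT replicate 2 (-1.09, adjusted p = 0.021). At day 9 all KO libraries lay above all WT libraries, a difference that was not called (0.38, adjusted p = 1). Fzd8 was at 1.24, 1.13 and 0.475 FPKM in KO libraries and 2.05, 2.07 and 3.56 FPKM in WT libraries at day 6, without overlap. The log2 difference of -0.87 (SE 0.21) was not called (adjusted p = 0.0633) except without WT replicate 2 (-0.96). Fzd8 rose between days 6 and 9 in KO cells (1.12, adjusted p = 0.00125). Fzd1 rose between days 6 and 9 in both genotypes (2.55 in KO, adjusted p = 3.34e-06; 1.58 in WT cells, adjusted p = 8.28e-04), to 11.9 ± 2.9 FPKM in KO and 6.97 ± 1.7 FPKM in WT cells. Fzd4, which also binds the non-Wnt ligand Norrin, rose between days 3 and 6 (0.91 in KO, 0.55 in WT cells) and between days 6 and 9 (0.67 in KO, 0.60 in WT cells). Of these 4 calls, only the first held in every leave-out. Fzd4 averaged 4.71 ± 0.98 FPKM in KO and 3.38 ± 1.4 FPKM in WT cells at day 9. Fzd3 and Fzd6, receptors of the polarity branch, rose between days 0 and 3. The rise was 0.84 in KO and 0.83 in WT cells for Fzd3 and 0.87 in KO and 0.75 in WT cells for Fzd6, and the Fzd6 call in WT cells was kept in 2 of 6 leave-outs (lost without WT day 0 replicate 1 or 2 or WT day 3 replicate 1 or 3, adjusted p up to 0.0703). Neither gene passed 2.89 FPKM in any library.

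**Figure D4:**
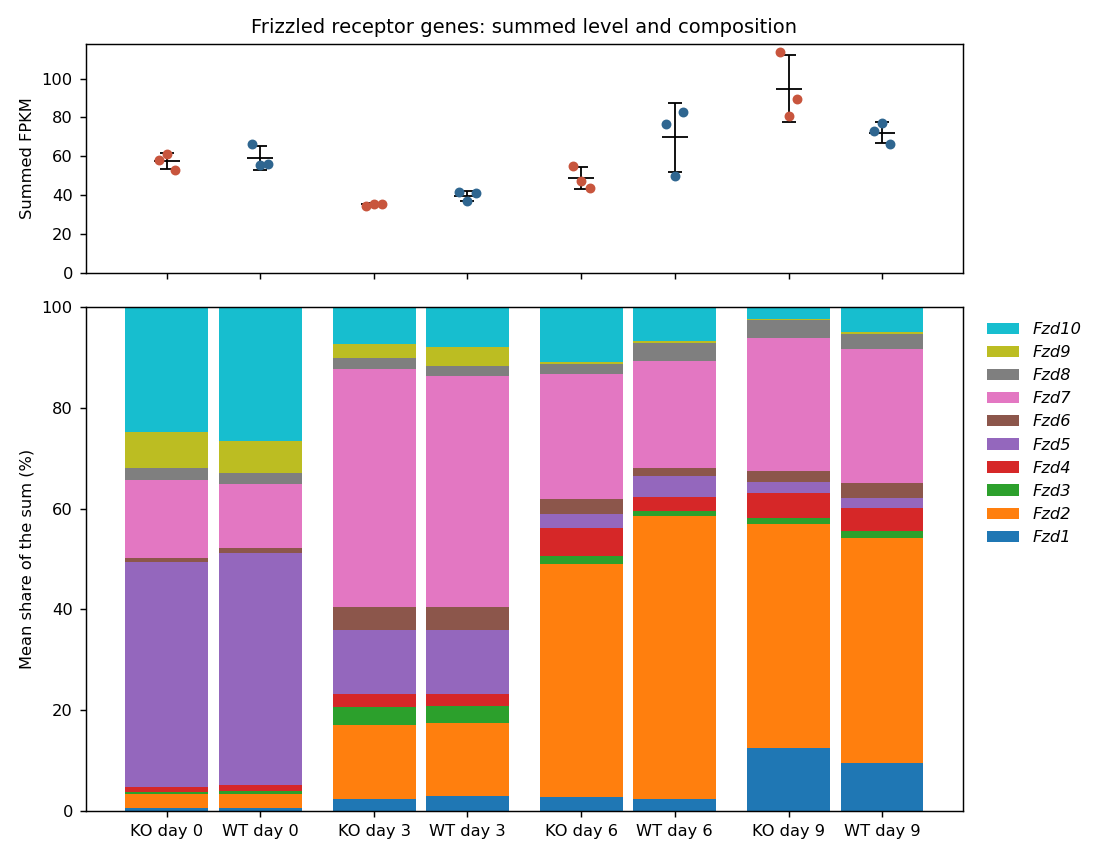
Top, summed FPKM of the 10 Frizzled genes with a point per library and mean ± SD in black; bottom, mean share of each gene in that sum (%), for each genotype and day with KO left of WT. Fzd5 is the largest share at day 0, Fzd7 at day 3 and Fzd2 at days 6 and 9 in both genotypes.

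Among the Sfrp inhibitors the genotypes separated at day 6. The sum of the 4 genes averaged 18.1 ± 1.91 FPKM in KO and 19.2 ± 1.86 FPKM in WT cells at day 0, and 11.6 ± 1.11 in KO and 13.2 ± 0.932 FPKM in WT cells at day 3. It was 5.72 ± 2.10 in KO and 21.5 ± 4.74 in WT cells at day 6, and 53.3 ± 17.1 in KO and 40.2 ± 4.29 FPKM in WT cells at day 9. Sfrp1 accounted for 29.6% of the sum in KO and 29.8% in WT cells at day 3. Its share was 37.7% in KO and 78.8% in WT cells at day 6, and 74% in KO and 73.2% in WT cells at day 9.

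Sfrp1 (chr8:23411502-23449632, + strand, mm10), a secreted Wnt-binding protein, was at 13.3, 15.6 and 12.8 FPKM in KO libraries and 12.7, 15.7 and 17.3 FPKM in WT libraries at day 0. At day 3 Sfrp1 had 4.12, 3.36 and 2.79 FPKM in KO libraries and 4.21, 3.58 and 3.98 FPKM in WT libraries. Both genotypes were lower in every library of day 3 than in any of day 0, and they overlapped on both days. At day 6 Sfrp1 had 3.78, 1.25 and 1.68 FPKM in KO libraries and 19.8, 13.1 and 17.7 FPKM in WT libraries. At day 9 Sfrp1 had 21.9, 44.6 and 54.7 FPKM in KO libraries and 27.9, 32 and 28 FPKM in WT libraries. At day 6 every KO library lay within or under the KO range of day 3, while the WT libraries overlapped the WT range of day 0, and at day 9 the genotypes overlapped. The day 6 difference was -2.52 (SE 0.28, adjusted p = 4.16e-05), from 179, 101 and 148 reads in KO and 984, 967 and 338 reads in WT libraries, and it was called in all 7 leave-outs. The step between days 3 and 6 was -0.52 in KO cells (adjusted p = 0.161) and 1.84 in WT cells (adjusted p = 3.55e-05), a difference of -2.36 between the steps (SE 0.39, adjusted p = 0.0156). The step between days 6 and 9 was 3.66 in KO cells (adjusted p = 2.43e-08), the largest called step among the 27 members, and 0.78 in WT cells (adjusted p = 0.0663), a difference of 2.88 (adjusted p = 3.94e-04). The first of these differences was called in 7 of 13 leave-outs and the second in 13 of 13. The first was lost without WT day 3 replicate 2, WT day 6 replicate 1 or 3, KO day 3 replicate 1 or 2, or KO day 6 replicate 2, and with a replicate block (adjusted p = 0.0616). With TPM the day 6 difference was -2.02 and missed the threshold (adjusted p = 0.0574). The differences between the steps were not called with TPM either (-2.08, adjusted p = 0.912, and 2.46, adjusted p = 0.106). At day 6 the primitive streak markers summed to 6.82 to 16.1 FPKM in KO and 36.2 to 111 FPKM in WT libraries, with 5 of 8 markers called lower and none at 0 in all libraries of either group. The red blood cell markers summed to 163 to 2498 FPKM in KO and 23.3 to 86 FPKM in WT libraries (4 of 5 tested called higher), and the mesoderm markers to 212 to 353 FPKM in KO and 172 to 292 FPKM in WT libraries (1 of 7 tested called, lower). Other lists were also apart at day 6. The endothelial markers summed to 6.70 to 12.5 FPKM in KO and 3.44 to 4.20 FPKM in WT libraries (1 of 6 called, higher). The neural ectoderm markers summed to 8.85 to 10.5 FPKM in KO and 12.5 to 16.4 FPKM in WT libraries (1 of 2 tested called, lower). The part of all these lists in the Sfrp1 difference was not tested.

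Sfrp2 followed a course of its own and alike in both genotypes. It was at 1.99, 2.28 and 2.08 FPKM in KO libraries and 1.97, 2.07 and 1.7 FPKM in WT libraries at day 0. At day 3 Sfrp2 had 6.15, 8.05 and 6.08 FPKM in KO libraries and 7.87, 8.72 and 7.15 FPKM in WT libraries. Here every library of day 3 was above every library of day 0. At day 6 Sfrp2 had 1.72, 1.71 and 2.07 FPKM in KO libraries and 1.39, 1.95 and 2.02 FPKM in WT libraries. At day 9 Sfrp2 had 7.64, 6.3 and 7.35 FPKM in KO libraries and 5.56, 8.81 and 8.57 FPKM in WT libraries. It thus stood high at days 3 and 9 and low at days 0 and 6, with no overlap between the high and the low days. Its 3 steps were 1.31, -1.45 and 1.51 in KO cells and 1.61, -1.68 and 1.62 in WT cells (SE 0.16), each called in every leave-out, and the largest KO minus WT difference was -0.20, at day 3 (adjusted p = 1). Between days 3 and 6 Sfrp1 in WT cells went the other way.

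Sfrp5, which binds Wnt5a and Wnt11 in vertebrates, was scattered between libraries. It was at 0.943, 1.61 and 1.29 FPKM in KO libraries and 1.9, 0.99 and 1.17 FPKM in WT libraries at day 0. At day 3 Sfrp5 had 0.647, 0.946 and 0.77 FPKM in KO libraries and 1.04, 1.1 and 0.458 FPKM in WT libraries. The days and the genotypes overlapped. At day 6 Sfrp5 had 2.58, 2.05 and 0.261 FPKM in KO libraries and 2.54, 0.966 and 4.71 FPKM in WT libraries. At day 9 Sfrp5 had 4.16, 9.63 and 3.35 FPKM in KO libraries and 2.11, 3.23 and 4.04 FPKM in WT libraries. The rise between days 6 and 9 in KO cells was called (1.37, SE 0.38, adjusted p = 0.028), though not without KO day 6 replicate 3 (0.91) or KO day 9 replicate 2 (0.98). Sfrp4 reached 1.02 FPKM in 1 KO day 0 library, was under 1 FPKM in the others and was not tested.

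The Dkk inhibitors were nearly silent through day 3 and came up at day 6. Their sum averaged 1.13 ± 0.196 FPKM in KO and 1.06 ± 0.100 FPKM in WT cells at day 0, and 1.16 ± 0.165 in KO and 1.82 ± 0.183 FPKM in WT cells at day 3. It was 9.21 ± 2.27 in KO and 10.7 ± 1.21 in WT cells at day 6, and 11.1 ± 0.499 in KO and 11.7 ± 0.878 FPKM in WT cells at day 9. Dkk1, the Lrp5 and Lrp6 antagonist needed for head formation in the mouse and itself a target of the β-catenin branch, was at 0.192, 0.117 and 0.0894 FPKM in KO libraries and 0.297, 0.323 and 0.328 FPKM in WT libraries at day 0. At day 3 Dkk1 had 0.11, 0.238 and 0.301 FPKM in KO libraries and 0.303, 0.547 and 0.638 FPKM in WT libraries. On both days the KO libraries lay below the WT libraries. At day 6 Dkk1 had 3.84, 3.55 and 3.6 FPKM in KO libraries and 5.87, 5.49 and 9.45 FPKM in WT libraries. At day 9 Dkk1 had 5.78, 4.91 and 2.56 FPKM in KO libraries and 4.22, 4.32 and 4.35 FPKM in WT libraries. At day 6, too, all KO libraries were below all WT libraries, and at day 9 the genotypes overlapped. None of the differences was called, except that of day 6 without WT replicate 2 (-0.86, against -0.73 with all libraries, SE 0.20, adjusted p = 0.104). The rise between days 3 and 6 was 1.94 in KO (adjusted p = 2.48e-07) and 2.38 in WT cells (adjusted p = 2.2e-08).

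Dkk3, the most divergent member of the family, was at 0.695, 1.16 and 1.06 FPKM in KO libraries and 0.698, 0.77 and 0.641 FPKM in WT libraries at day 0. At day 3 Dkk3 had 1.1, 1.013 and 0.566 FPKM in KO libraries and 1.24, 1.16 and 0.979 FPKM in WT libraries. These 2 days overlapped, as did the genotypes at day 3. At day 6 Dkk3 had 5.96, 5.42 and 2.42 FPKM in KO libraries and 3.95, 3.67 and 2.25 FPKM in WT libraries. At day 9 Dkk3 had 4.3, 4.27 and 5.63 FPKM in KO libraries and 4.38, 3.93 and 3.69 FPKM in WT libraries. The genotypes overlapped on both days. Dkk3 rose between days 3 and 6 by 1.51 in KO (SE 0.22, adjusted p = 2.11e-05) and by 0.99 in WT cells (adjusted p = 0.00144). Dkk2 was at 0.042, 0.0384 and 0 FPKM in KO libraries and 0, 0.0846 and 0.043 FPKM in WT libraries at day 0. At day 3 Dkk2 had 0, 0.052 and 0.0592 FPKM in KO libraries and 0.0305, 0.128 and 0.183 FPKM in WT libraries. The highest of these values was in a WT library of day 3. At day 6 Dkk2 had 0.872, 1.36 and 0.576 FPKM in KO libraries and 0.285, 0.703 and 0.186 FPKM in WT libraries. At day 9 Dkk2 had 0.522, 2.4 and 2.76 FPKM in KO libraries and 3.73, 3.73 and 2.54 FPKM in WT libraries. The genotypes overlapped on both days. Dkk2 was called higher between days 3 and 6 in KO cells (0.88, SE 0.24, adjusted p = 0.00796; not called without KO day 6 replicate 2, 0.73) and between days 6 and 9 in WT cells (1.65, adjusted p = 1.17e-04), and neither step differed between genotypes by the test (0.58, adjusted p = 1, and -1.15, adjusted p = 0.155), except the later step without KO day 9 replicate 3 (-1.39). Dkk4 was listed at 0 in 15 libraries and did not pass 0.174 FPKM.

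**Figure D5:**
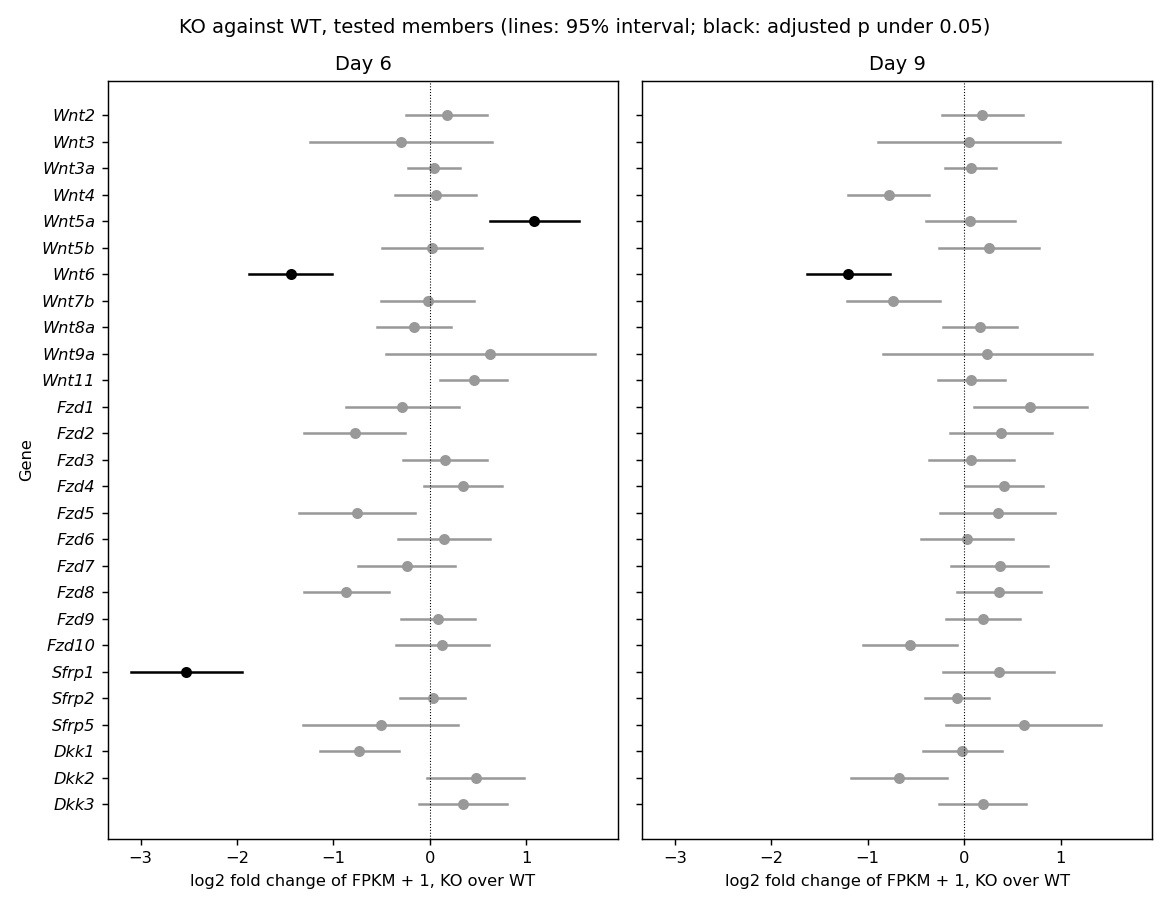
Log2 fold change of FPKM + 1, KO over WT, of the 27 tested members at day 6 (left) and day 9 (right), with lines for the 95% interval; black marks an adjusted p under 0.05. Sfrp1, Wnt6 and Wnt5a are black at day 6 and Wnt6 at day 9.

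The other genes of the pathway were taken from a list of 79, of which 62 were tested. No leave-out or other scaling is given for these genes, so the stability of their calls is not shown. At day 6, 5 of the 62 were called lower in KO cells and 0 higher, beside 0.495% lower and 0.231% higher of all genes. They were Cer1, Shisa2 (-1.26), Sp5 (-1.14), Fgf8 (-1.84) and T (brachyury). Cer1 is a secreted inhibitor of Nodal and BMP, and Sp5 is a target and repressor within the β-catenin branch. Sp5, Fgf8 and T are on the list as targets of the branch and Fgf8 and T are also primitive streak markers. At day 9 1 of the 62, Dkkl1, was called lower (-1.08), beside 0.495% of all genes. Cer1 was listed at 0 in all 3 KO libraries of day 6 and was at 11, 5.07 and 6.86 FPKM in WT libraries. Axin2, the usual reporter gene of β-catenin signalling, was not called between genotypes on any day. At day 6 Axin2 was at 5.31, 4.41 and 20.2 FPKM in KO and 3.78, 6.25 and 12.6 FPKM in WT libraries (log2 0.21).

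Genes of Wnt secretion changed with the day in both genotypes. Porcn, the acyltransferase that attaches the lipid to Wnts, fell between days 0 and 3 (-2.64 in KO, -2.51 in WT cells) and rose between days 3 and 6 (1.44 in KO, 1.51 in WT cells), and Wls, the carrier of lipidated Wnts, rose over both intervals (1.54 then 1.41 in KO, 1.19 then 1.12 in WT cells). Notum, which removes the lipid and is a feedback inhibitor, fell between days 0 and 3 (-2.97 in KO, -2.58 in WT cells). Of the co-receptors, Ror1 rose (1.20 in KO, 1.22 in WT cells) and Ror2, the receptor for Wnt5a, fell (-0.84 in KO, -0.93 in WT cells) between days 0 and 3, and between days 3 and 6 Ror2 rose (1.08 in KO, 1.48 in WT cells). Lef1 rose between days 0 and 3 (1.79 in KO, 2.21 in WT cells) and Rspo3, a secreted enhancer of Wnt signalling, between days 3 and 6 (1.55 in KO, 2.2 in WT cells). Over the whole list, calls in the 3 steps were 10 higher and 12 lower, 16 and 12, and 7 and 3 in KO cells. Of all genes, 11.9% were higher and 16.2% lower, 17.7% and 14.9%, and 6.06% and 2.45% in these KO steps. In WT cells they were 14 higher and 9 lower, 21 and 10, and 5 and 16, beside 11.4% higher and 14.5% lower, 19.5% and 19.1%, and 8.15% and 5.13% of all genes. Between days 6 and 9 the step differed between genotypes in 5 of the 62, beside 0.963% of all genes (0.6% higher): Cer1, Shisa2, Sp5, T and Fgf8, all of them more positive in KO cells (Shisa2 2.08, Sp5 1.66, Fgf8 2.73). These are the genes called lower in KO cells at day 6. Both tests contain the day 6 libraries, so they are not independent of each other.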

How the data were processed

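The members, the pathway and marker lists and the tests were chosen with earlier results of these data known. Per the submitters' processing notes, the build was mm10, and the tools named are HISAT2 2.2.1 and featureCounts 2.0.1, FastQC 0.11.9, Trimmomatic 0.39, R 4.1.0 and DESeq2 1.30.1. The sources used here state no strand setting, so reads of overlapping genes on opposite strands cannot be told apart. The deposited table holds FPKM for 53465 genes. The sources used here do not say how the authors scaled it. Of its 24 columns, 23 were tied to a sample by name and 1 to the KO day 0 group only, the unnumbered library; other libraries carry the replicate number of their title.

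FPKM was turned into reads with GENCODE vM21 exon lengths, found for 53360 IDs: per library, 95.5% to 96.9% of values of at most 50 reads lay within 0.05 of a whole read. These reads give the depth behind a value, which covers counting error only, and served as an alternative input.

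Genes with at least 1 FPKM in at least 3 libraries (15159) were taken as log2(FPKM + 1), a scale that understates the change of low genes, and all 24 libraries, in 8 groups, entered a single limma fit (version 3.58.1, R 4.3.3). Its prior variance had a trend, with 4.02 prior and 16 residual degrees of freedom. P-values are two-sided and adjusted by Benjamini-Hochberg over all genes tested, with a threshold of 0.05. The 13 comparisons were KO minus WT on each day, each step between adjacent days within a genotype, and the KO step minus the WT step. The fit was tested on simulated data. Atf3 also had an exact permutation test. Tables and figures were made in Python 3.11.15 (scipy 1.17.1, pandas 2.3.3, matplotlib 3.10.9, numpy 2.4.6).

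Values of every library are given for members called between genotypes or in a difference of steps, for the 3 highest means of each family and for the 3 largest called steps; other members named singly, and Axin2, were chosen after their values were seen. The alternatives were a pseudocount of 0.1, no filter, TPM, voom on the reads, the groups compared alone, a replicate block, and each library left out in turn. Equal sums without rRNA-type genes and day 6 without replicate 3 of both genotypes were added after seeing the data. The deviations of libraries with the same number from their group means correlated at 0.655, 0.614 and 0.599 on day 3 and at -0.467 to 0.265 on the other days. Libraries with different numbers were not compared. On day 3, replicate 1 had the lowest share of rRNA-type reads in both genotypes. Whether the numbers pair the libraries was not tested. Promoter windows are from RefSeq, GRCm38.p6. Members on chromosome 18 have no sequence shown.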

Additional observations from a re-analysis of the deposited data

Results flagged for a closer look

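The course of Sfrp1 differed between the genotypes by a test of the difference itself. Between days 3 and 6 the KO step minus the WT step was -2.36 on the log2 scale (SE 0.39, limma, adjusted p = 0.0156), and between days 6 and 9 that difference was 2.88 (adjusted p = 3.94e-04). Both contain the day 6 libraries, so they are not independent of each other. The earlier difference was called in 7 of 13 leave-outs and the later in 13 of 13. With TPM neither was called (limma, adjusted p = 0.912 for the earlier and 0.106 for the later). At day 6 Sfrp1 was at 3.78, 1.25 and 1.68 FPKM in KO libraries and 19.8, 13.1 and 17.7 FPKM in WT libraries.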

How the results depend on the processing

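No called step or difference of a member changed sign under the alternatives run, but with TPM the split of higher to lower calls over days 0 to 3 turned to 4 to 5 in both genotypes (9 to 5 in KO and 9 to 6 in WT cells as reported). With TPM, members called numbered 0 at day 6 between KO and WT cells (3 as reported), 9 and 7 in KO cells over days 0 to 3 and 6 to 9, 9, 9 and 13 in WT cells over the 3 steps, and 0 in the step differences over days 3 to 6 and 6 to 9 (this scaling puts the median gene's change at -0.494 to 0.833). Some called steps named above were lost with TPM. Over days 0 to 3 these were Fzd3, Fzd6, Fzd7 and Wnt9a in both genotypes and Wnt5b in WT cells. Over days 3 to 6 they were Fzd9 in KO cells and Dkk3, Fzd4 and Wnt5b in WT cells. Over days 6 to 9 they were Fzd4, Fzd7 and Wnt4 in KO cells and Wnt3 in WT cells. With equal sums the median gene's change was -0.264 to 0.271. TPM left Atf3 at -2.90 on day 3 (adjusted p = 0.752) and -2.38 on day 6 (adjusted p = 0.175). With only the groups compared in the fit, 0 members were called between KO and WT cells at days 6 and 9. Over days 6 to 9, 4 were called in KO and 4 in WT cells, and 0 in the step differences over days 3 to 6 and 6 to 9. That fit has fewer degrees of freedom and takes its spread from those groups alone. The part of either in the lost calls was not tested. A pseudocount of 0.1 left 0 at day 9, where Wnt6 had an adjusted p of 0.056 (0.00153 to 0.274 over its 8 other settings); the cause was not tested. With a replicate block 0 members were called in the step difference over days 3 to 6 (Sfrp1 adjusted p = 0.0616) and 2 at day 6, without Wnt5a (adjusted p = 0.0601). At day 3, where libraries of the same number correlated most, it called 0 members, as without it. Whether the numbers pair the libraries was not tested. Leaving out 1 library gave 2 to 6 members at day 6 (6 without WT replicate 2), 1 to 2 at day 9, 0 to 3 in the step difference over days 3 to 6 (3 without WT day 6 replicate 2, 2 without KO day 6 replicate 3) and 1 to 4 over days 6 to 9 (4 without WT day 6 replicate 2 or KO day 6 replicate 1, 3 without KO day 9 replicate 3, 2 without WT day 9 replicate 1 or KO day 9 replicate 2), and an Atf3 log2 fold change of -3.28 to -2.55 at day 3 (called in 1 of 6), -3.45 to -2.48 at day 6 and -3.47 to -3.30 at day 9. Without replicate 3 of both genotypes at day 6, the step difference over days 3 to 6 was called in 2 members. No share of all genes called is given for the settings of this section, so these counts describe the members only. Wnt5a at day 6 was called in 1 of 8 other settings (adjusted p 0.0307 to 0.925), and Wnt6 and Sfrp1 each in 6 of 8. Among the members called between genotypes, depth limits Wnt6 most, with 13 to 49 reads in KO libraries at day 6. Some called steps rest on fewer reads. At day 6 Fzd9 had 6, 10 and 12 reads in KO and 6, 4 and 2 reads in WT libraries. Wnt8a had 4, 1 and 6 reads in KO and 6, 4 and 3 reads in WT libraries on that day.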
